A study of Homo sapiens with 3 samples.

Results

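The small nucleolar RNA host genes examined here are the genes of the GENCODE annotation of hg19 whose symbol is SNHG followed by a number, together with GAS5 and DANCR. This rule gave 30 genes of 64440 annotated genes, and all 30 are annotated as long non-coding RNA (lncRNA) genes. They were examined in MDA-MB-231 cells, an adherent human line of triple-negative breast cancer established from a pleural effusion. Chromatin of cells crosslinked with 1% formaldehyde for 10 min was immunoprecipitated with 4 µg of an antibody against BMAL1 or 4 µg of an antibody against MAX, and the DNA was sequenced (ChIP-seq) beside input DNA from the same kind of cells. The immunoprecipitated libraries differ in the antibody, and no knockdown, drug or clock synchronization is described for them. Each antibody has 1 library, with a single input in common, so no value below has a spread between replicates, no difference was tested, and all values describe these libraries in this 1 cell line.

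A host gene carries small nucleolar RNAs (snoRNAs) in its introns. After splicing, the introns are trimmed to mature snoRNAs, of which the C/D box class (SNORD) guides ribose methylation and the H/ACA box class (SNORA) guides pseudouridylation of ribosomal RNA, while scaRNAs act on spliceosomal RNAs in Cajal bodies. Many host genes encode ribosomal proteins or translation factors, whereas the spliced RNAs of the genes studied here are annotated as non-coding. MAX is the basic helix-loop-helix leucine zipper partner of MYC, a known activator of ribosome biogenesis, and of the MNT and MXD repressors. BMAL1 is the partner of CLOCK in the activator of the circadian clock, and both families of complexes bind the E-box CACGTG. RNA was not measured in these libraries, so the values concern occupancy at promoters only.

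The sequences under the peaks are shown first for the genes on which the results turn: those with a BMAL1 peak, and those with the highest MAX enrichment. Each line is the hg19 reference on the plus strand, with CACGTG in capitals (or, where stated, CACGCG or CGCGTG), and 200 bases are centred on the summit unless a shorter stretch is named. CACGTG is its own reverse complement, and CACGCG and CGCGTG are reverse complements of each other, so both strands were searched. The first 3 windows lie under BMAL1 summits, at chr1:173837314-173837343 for GAS5 (the 30 bases around the E-box), chr6:86388948-86389147 for SNHG5 and chr17:16341929-16342128 for SNHG29.
GAS5: gacatgaccgtcCACGTGatgccgtgctcc
SNHG5: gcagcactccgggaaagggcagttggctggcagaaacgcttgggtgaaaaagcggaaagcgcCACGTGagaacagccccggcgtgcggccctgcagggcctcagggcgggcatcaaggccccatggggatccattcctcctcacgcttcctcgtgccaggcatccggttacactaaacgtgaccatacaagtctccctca
SNHG29: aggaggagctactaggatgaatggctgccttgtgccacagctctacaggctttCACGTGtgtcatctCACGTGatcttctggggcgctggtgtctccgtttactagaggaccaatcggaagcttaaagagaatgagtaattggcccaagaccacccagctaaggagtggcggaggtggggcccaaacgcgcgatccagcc

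The other 5 windows lie under the MAX summits with the highest fold enrichment, at chr7:45025878-45026077 for SNHG15, chr20:37063682-37063881 for SNHG17, chr5:138609830-138609859 for SNHG4 (the 30 bases around the E-box), chr17:74553723-74553922 for SNHG16 and chr14:96000757-96000956 for SNHG10. Capitals mark CACGTG at SNHG15 and SNHG4, CACGCG at SNHG17 and CGCGTG at SNHG16. The window of SNHG10 holds none of these letters.
SNHG15: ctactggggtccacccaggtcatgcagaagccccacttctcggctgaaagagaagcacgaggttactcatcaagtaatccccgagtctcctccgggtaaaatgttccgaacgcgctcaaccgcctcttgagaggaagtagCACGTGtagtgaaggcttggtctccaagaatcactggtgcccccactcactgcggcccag
SNHG17: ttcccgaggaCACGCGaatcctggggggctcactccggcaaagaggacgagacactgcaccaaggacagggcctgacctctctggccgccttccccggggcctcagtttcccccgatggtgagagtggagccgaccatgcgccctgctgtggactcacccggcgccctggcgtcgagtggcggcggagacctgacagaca
SNHG4: cggagctccgaaCACGTGcgcgtgagtaag
SNHG16: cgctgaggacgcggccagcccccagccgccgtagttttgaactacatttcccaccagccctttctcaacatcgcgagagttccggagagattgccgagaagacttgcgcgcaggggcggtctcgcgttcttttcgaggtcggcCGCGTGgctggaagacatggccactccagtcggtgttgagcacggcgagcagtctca
SNHG10: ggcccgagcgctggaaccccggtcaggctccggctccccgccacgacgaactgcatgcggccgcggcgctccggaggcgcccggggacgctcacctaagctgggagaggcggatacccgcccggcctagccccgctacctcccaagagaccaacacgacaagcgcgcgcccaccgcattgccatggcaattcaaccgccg

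The deposited lists hold 13650 MAX peaks and 756 BMAL1 peaks, called from 11545865 MAX tags and 13866783 BMAL1 tags against 29308882 input tags. A peak was given to a gene when its summit lay within 1 kb of any annotated transcription start site (TSS) of that gene. Each peak is described by its pileup, the number of fragments stacked at the summit, and by its fold enrichment, the ratio of that pileup to a background. The background is that of the local input, or the genome-wide rate of fragments where that is higher (1.28 for MAX and 1.54 for BMAL1), and 17.3% of MAX peaks and 13.6% of BMAL1 peaks at start sites stood at the genome-wide rate. Brackets after a fold enrichment give the exact 95% Poisson interval of the pileup divided by that background, which covers counting error only. A gene with no listed peak is one where none passed the peak caller at this depth.

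Most of the host genes had a MAX peak at a start site and few had a BMAL1 peak. MAX was listed at 23 of 30 genes (76.7%), against 15.6% of all annotated genes, 12.3% of lncRNA genes and 36.3% of protein-coding genes. BMAL1 was listed at 3 of 30 genes (10.0%), namely GAS5, SNHG5 and SNHG29, against 0.793% of all annotated genes, 0.684% of lncRNA genes and 1.85% of protein-coding genes. Each of these 3 genes also had a MAX peak, as did 482 of all 511 genes with a BMAL1 peak. Of all genes with a MAX peak, 4.8% had a BMAL1 peak as well, and of the host genes with a MAX peak 13.0% did.

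The number of annotated transcripts moved with these shares. The host genes had a median of 14 annotated transcripts (2 to 142), whereas the median over all genes was 1. Among the 19 host genes with 10 or more transcripts, 16 had a MAX peak (84.2%), against 47.4% of all genes and 25.9% of lncRNA genes annotated that richly. Among the 11 host genes with fewer transcripts, 7 had a MAX peak (63.6%), against 11.5% of all genes and 11.5% of lncRNA genes with fewer than 10. The 3 genes with a BMAL1 peak were all among the 19 with 10 or more transcripts (15.8%), against 2.5% of all genes and 1.33% of lncRNA genes with as many. Of the 11 with fewer, 0 had one, against 0.577% of all genes and 0.646% of lncRNA genes with fewer than 10. With 1 TSS per gene the shares for MAX were 63.3% of the host genes and 13.4% of all genes, as against 76.7% and 15.6% with every TSS. The part of the annotation in these shares was not tested further. The bars of shares by gene group plot these counts, except those of genes with fewer than 10 transcripts and of 1 TSS per gene.

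**Figure D1:**
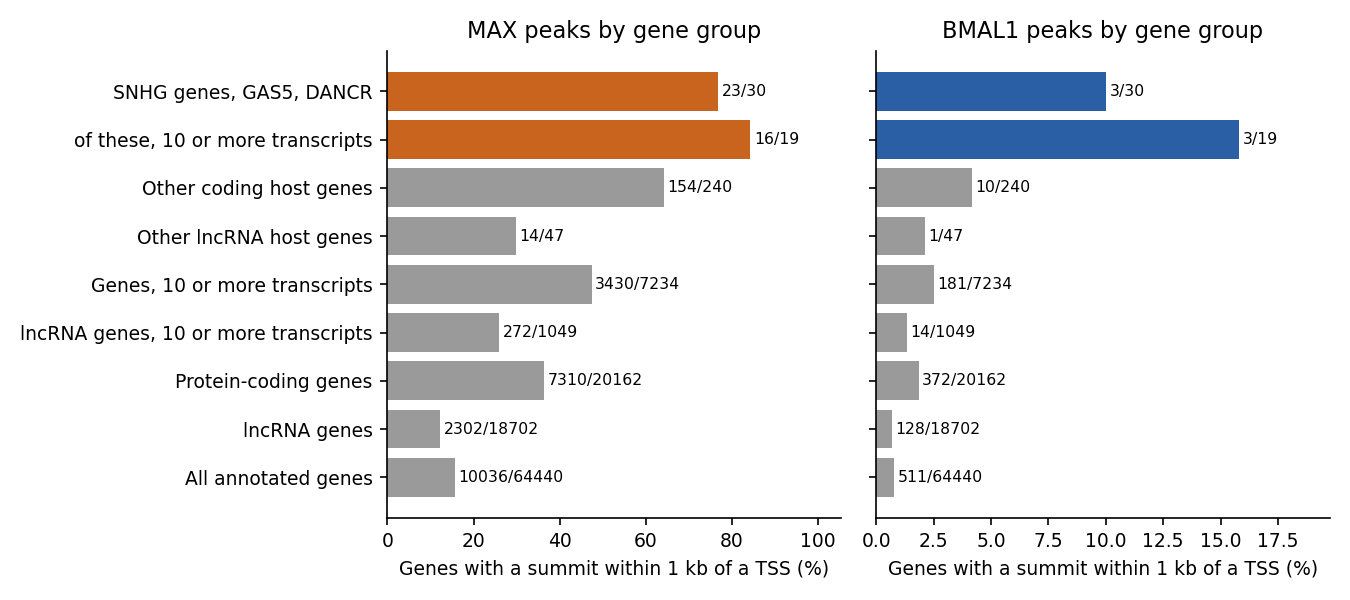
Share of genes (%, horizontal axes) with a MAX summit (left) or a BMAL1 summit (right) within 1 kb of a TSS, by gene group, with the number of genes over the group's size beside each bar. The 30 host genes stand at 76.7% for MAX and 10.0% for BMAL1, and all annotated genes at 15.6% and 0.793%.

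MAX enrichment differed widely between the host genes. Taking the strongest peak of each gene, fold enrichment ran from 8.54 to 42.1, with a median of 12.7 and quartiles of 10.9 and 16.6. Over all 10036 genes with a MAX peak the median was 10.7, with quartiles of 8.54 and 13.8, and over the lncRNA genes it was 10.4. In all, 18 of 23 host genes stood above the median of all genes, and for 6 of them the whole counting interval did. The count of 6 has no counterpart over all genes here.

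SNHG15, the host of SNORA9, had the highest MAX enrichment. Its peak at chr7:45025599-45026640 reached 54 fragments over a background of 1.28, the genome-wide rate, which gave a fold enrichment of 42.1 [31.6 to 54.9], and 99.87% of all genes with a MAX peak had a lower value. The summit lay in an exon, 181 bp downstream of the nearest start site, and the E-box printed above begins at base 45026018, 43 bp from the summit. A second E-box of the same peak lies 173 bp from the summit. The counting intervals of 20 of the other 22 genes ended below that of SNHG15, and those of SNHG17 and SNHG4 overlapped it.

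SNHG17, the host of SNORA71A, SNORA71B, SNORA71C and SNORA71D, had the highest MAX pileup, 71 fragments. Its background was higher (2.36), so that the fold enrichment at chr20:37063310-37064265 came to 30.0 [23.5 to 37.9]. The summit window held CACGCG 88 bp from the summit, and the nearest CACGTG lay 154 bp away. SNHG17 had 2 further MAX peaks of 7.98 and 6.79 at start sites inside the gene, which carries 118 annotated transcripts.

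At SNHG4 the MAX peak at chr5:138609114-138610052 reached 37 fragments and a fold enrichment of 28.5 [20.0 to 39.2], with an E-box 53 bp from the summit. Its summit coincided with annotated start sites of SNHG4 and lay within 1 kb of a start site of MATR3, a nuclear matrix protein gene on the same strand. Occupancy of SNHG4 and of MATR3 cannot be told apart here.

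Enrichment fell off steadily after these. SNHG16, the host of SNORD1A, SNORD1B and SNORD1C, reached 20.0 [13.2 to 29.2], 6 bp from a start site, with CGCGTG 46 bp from the summit. SNHG10, which carries SCARNA13, reached 18.5 [12.7 to 26.0]. At SNHG1, the host of 8 snoRNAs including SNORD22 and SNORD25, the value was 17.4 [12.5 to 23.5] from 41 fragments, and CACGCG lay 8 bp from the summit. These 3 intervals overlapped one another widely, so that their order is not resolved by the counts.

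Values between 11.7 and 15.7 were found at 9 further genes. Those above 14 were SNHG26 (15.7), SNHG8 (14.8) and SNHG7 (14.4), which carry SNORD93, SNORA24 and the pair SNORA17A and SNORA17B. GAS5, a growth-arrest transcript with 11 snoRNAs, reached 12.9 [8.45 to 19.0], near SNHG25 (12.8), SNHG29 (12.7), SNHG9 (12.5), DANCR (12.1) and SNHG31 (11.7). DANCR, the host of SNORA26, is otherwise known as a transcript that restrains differentiation. The interval of GAS5 contains the values of all the others in this range, so these neighbours cannot be ordered.

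The lowest values were those of SNHG5 (11.3), SNHG20 (11.1), SNHG6 (10.7), SNHG32 (10.7), SNHG12 (10.2), SNHG30 (9.35), SNHG19 (8.57) and SNHG11 (8.54). SNHG19 rested on 11 fragments and SNHG30 on 12, the smallest pileups among the strongest peaks. Both of the counting intervals of SNHG19 [4.28 to 15.3] and SNHG30 [4.83 to 16.3] contained the median of all genes.

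**Figure D2:**
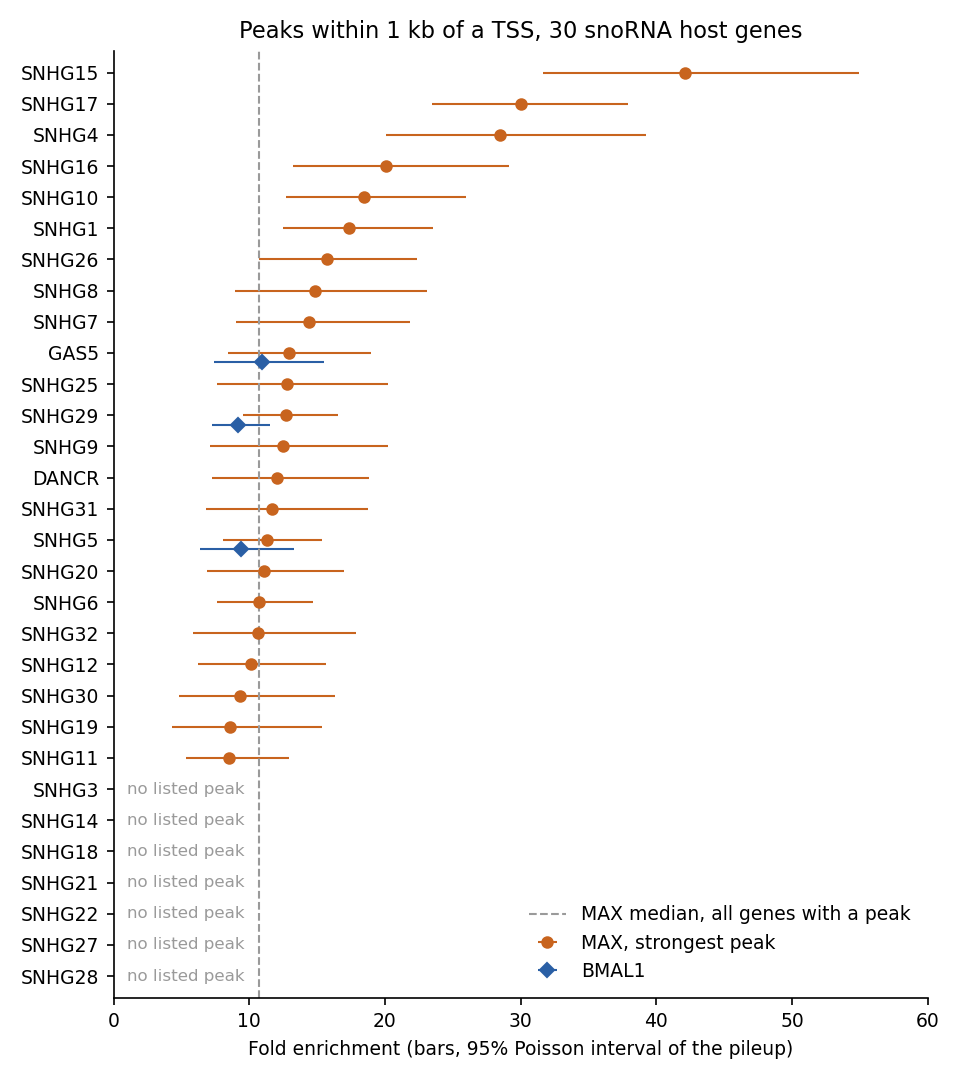
Fold enrichment (horizontal axis) of the strongest MAX peak (circles) and of the BMAL1 peak (diamonds) within 1 kb of a TSS for each of the 30 host genes, with 95% Poisson intervals of the pileup as bars and the MAX median over all genes with a peak (10.7) as a dashed line. SNHG15 stands highest at 42.1, 7 genes have no listed peak, and the 3 BMAL1 values lie between 9.2 and 10.9.

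**Figure D3:**
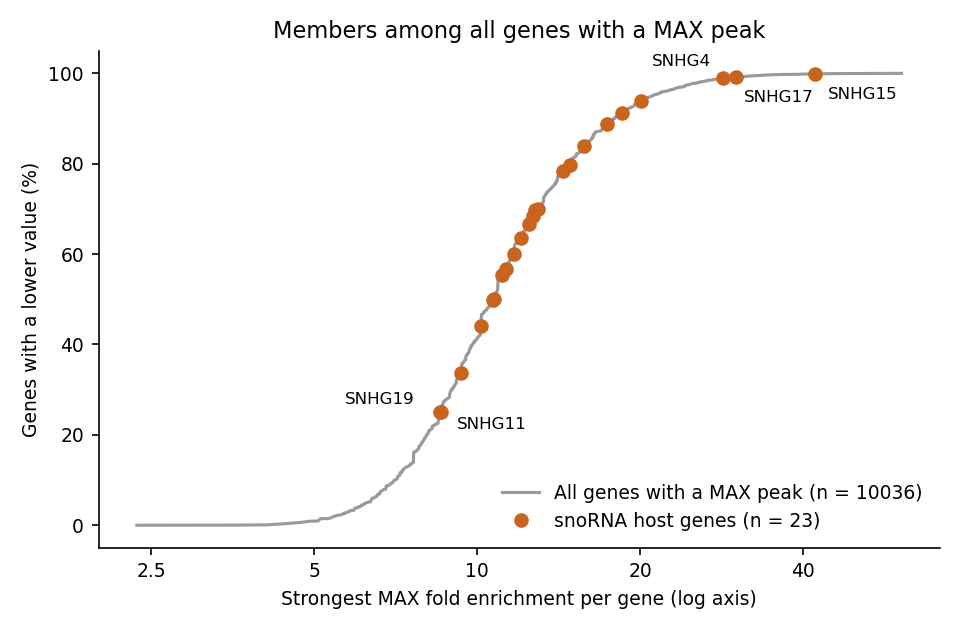
Strongest MAX fold enrichment per gene (horizontal axis, log scale) against the percent of all 10036 genes with a MAX peak that have a lower value (vertical axis), with the 23 host genes as circles on the curve of all genes. SNHG15, SNHG17 and SNHG4 stand at 99.87%, 99.12% and 98.88%, and SNHG11 and SNHG19 lie lowest, at 24.99% and 25.05%.

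Fold enrichment and pileup ordered the genes differently. SNHG29 ranked 2 by pileup with 55 fragments, but its local background was 4.33, above that of all but 0.966% of the MAX peaks at start sites. SNHG5 (40 fragments) and SNHG6 (38 fragments) ranked 5 and 6 by pileup over backgrounds of 3.55 each, and their folds were 11.3 and 10.7. The peaks of 5 genes stood at the genome-wide rate of 1.28, the lowest background possible, and their folds spanned most of the range: 42.1 at SNHG15, 14.8 at SNHG8, 12.5 at SNHG9, 9.35 at SNHG30 and 8.57 at SNHG19. The median pileup was 22 for the strongest peaks of the host genes and 18 for all 8174 MAX peaks at start sites, and the median backgrounds were 1.57 and 1.77. The peaks of the host genes were chosen here for the highest fold, and the 8174 were not, so these medians are not like for like. The part of the background in the ranking by fold was not tested further.

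**Figure D4:**
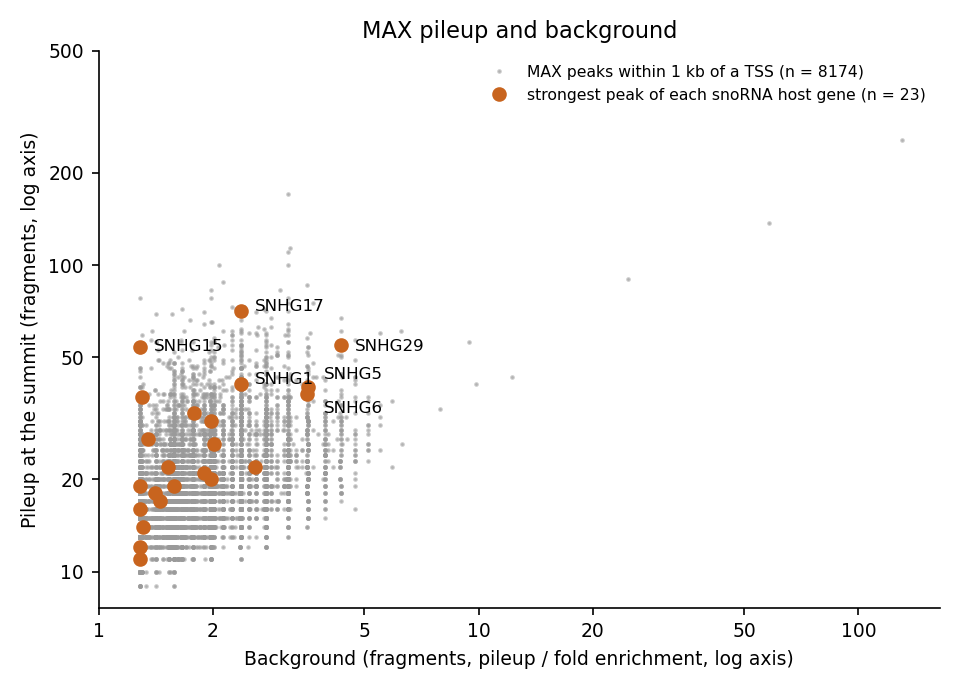
Pileup at the summit (fragments, vertical log axis) against the background (fragments, horizontal log axis) for the 8174 MAX peaks within 1 kb of a TSS (grey) and the strongest peak of each of 23 host genes (orange). SNHG15 combines 54 fragments with the genome-wide background of 1.28, whereas SNHG29 has 55 fragments over a background of 4.33.

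The 23 genes held 32 MAX peaks in all. One peak was found at 17 genes, 2 at GAS5, DANCR and SNHG29, and 3 at SNHG7, SNHG16 and SNHG17. The 9 weaker peaks ran from 5.71 to 10.9. Of the 23 strongest summits, all within 1 kb of a start site by the rule, 16 lay within 100 bp of one and 20 within 300 bp, with a median of 54 bp. These distances have no counterpart over all genes here. The host genes had a median of 10.5 distinct start sites, against 1 over all genes. Relative to the host gene, 15 fell in an exon, 1 in an intron and 7 upstream. The summit farthest from a start site among the strongest was that of SNHG6, at 685 bp and inside an intron. At SNHG12, SNHG6, SNHG32 and SNHG20 the strongest summit was 1047, 1542, 1726 and 1917 bp downstream of the 5′ end of the gene. These peaks were thus assigned through annotated start sites inside the gene, the nearest being 685 bp away at SNHG6 and 509 bp at SNHG32. Whether those start sites are in use was not tested.

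Several summits are shared with a coding start site. For 9 of 23 genes (39.1%) the strongest summit also lay within 1 kb of a protein-coding start site, against 65.8% of all 2302 lncRNA genes with a MAX peak. On the opposite strand lay ZBTB37 beside GAS5, SLC3A2 beside SNHG1, RPS2 beside SNHG9, GLRX5 beside SNHG10, TRAF7 beside SNHG19 and BARD1 beside SNHG31. RPS2 encodes a protein of the small ribosomal subunit, SLC3A2 the heavy chain of amino acid transporters, and BARD1 the partner of BRCA1. On the same strand were MATR3 beside SNHG4, SEC14L1 beside SNHG20 and the unnamed coding gene ENSG00000271793 beside SNHG5. At these 9 genes the MAX summit does not separate the host gene from its neighbour, whereas SNHG15, SNHG16 and SNHG17 had no coding start site within 1 kb. Both summits of DANCR also lay within 1 kb of a start site of the lncRNA gene LINC01618, the strongest summit of SNHG16 near one of ENSG00000267546, and the weaker summit of SNHG29 near one of ENSG00000266651.

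The 3 BMAL1 peaks were not among the strong ones of the list. GAS5 had 31 fragments and a fold enrichment of 10.9 [7.42 to 15.5] at chr1:173837065-173837483, SNHG5 had 31 fragments and 9.36 [6.36 to 13.3] at chr6:86388893-86389329, and SNHG29 had 74 fragments and 9.2 [7.22 to 11.6] at chr17:16341592-16342353. The median of the 369 BMAL1 peaks at start sites was 11.2, inside the interval of each of them. The background of SNHG29 was 8.04, and only 0.271% of BMAL1 peaks at start sites had a higher one, so that its 74 fragments, set beside a median of 24, gave the lowest fold of the 3. For GAS5 and SNHG5 the backgrounds were 2.84 and 3.31, against a median of 2.28. The BMAL1 summit of GAS5 also lay within 1 kb of a start site of ZBTB37, and that of SNHG5 within 1 kb of one of ENSG00000271793. At GAS5 and SNHG5 the BMAL1 summit therefore does not separate the host gene from its coding neighbour.

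At each of the 3 genes the BMAL1 peak overlapped the strongest MAX peak. The overlap was 419 bp at GAS5, 357 bp at SNHG5 and 635 bp at SNHG29, and the summits were 185 bp, 84 bp and 110 bp apart. Of all 8174 MAX peaks at start sites 4.18% overlapped a BMAL1 peak, and of the 32 at host genes 3 did (9.38%). Seen from BMAL1, a MAX peak at the same gene is the usual case, found at 482 of all 511 genes with a BMAL1 peak. At all 3 genes the BMAL1 summit lay closer to the E-box than the MAX summit. At GAS5 the E-box was 15 bp from the summit of BMAL1 and 200 bp from that of MAX, and at SNHG5 36 bp and 49 bp. SNHG29 has a pair of E-boxes, 31 bp and 45 bp from where BMAL1 peaked, and 141 bp and 155 bp from where MAX did. The BMAL1 summit of GAS5 lay 181 bp upstream of the nearest of its start sites, that of SNHG29 52 bp and that of SNHG5 398 bp upstream, as the maps of the peaks show.

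**Figure D5:**
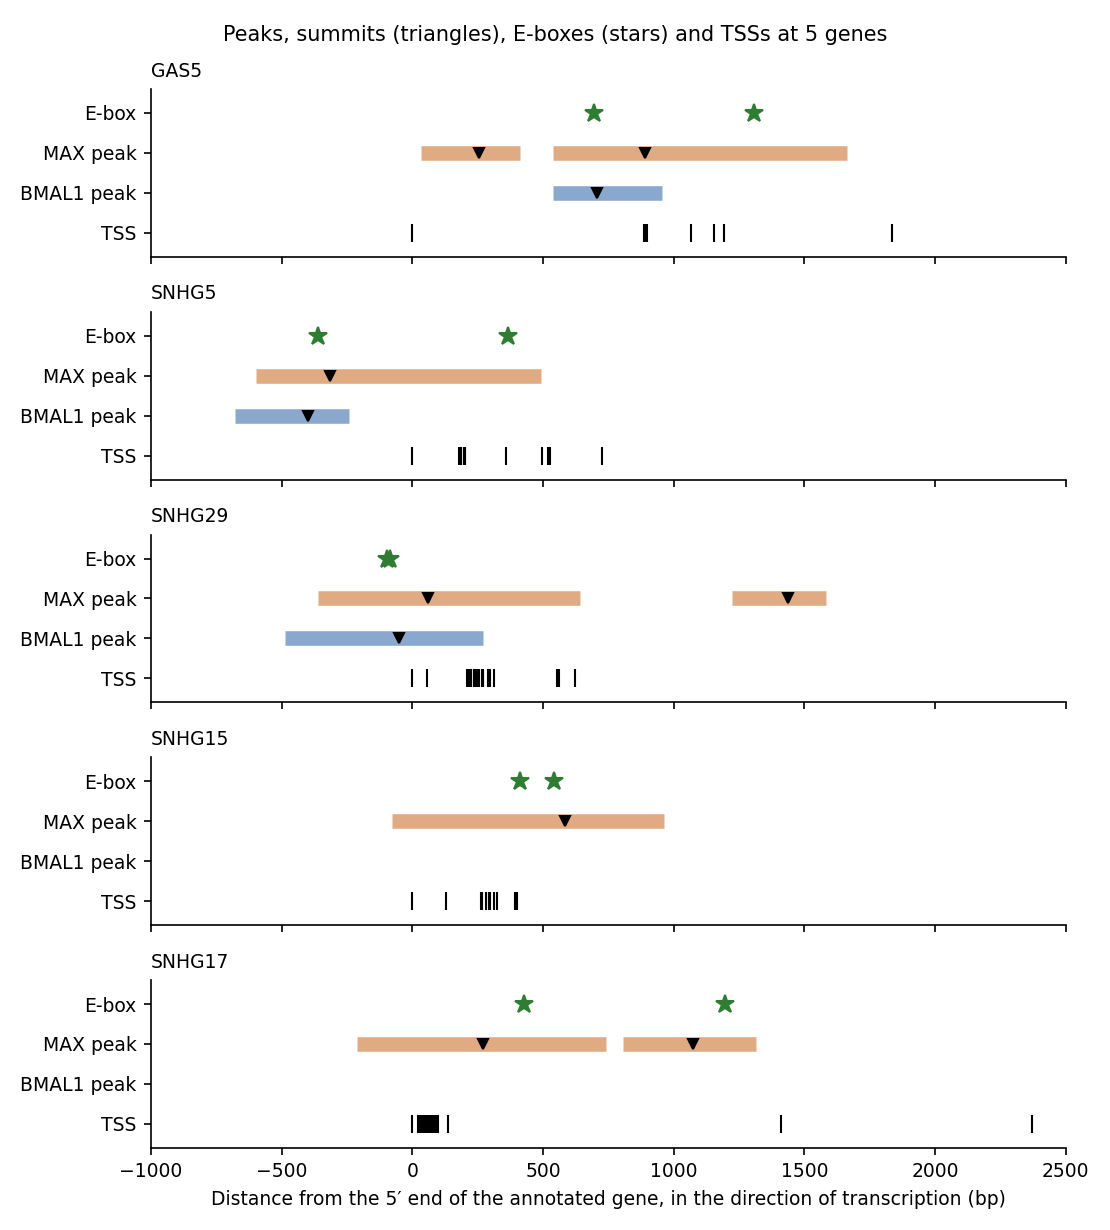
Peaks (bars), summits (triangles), CACGTG (stars) and annotated start sites (ticks) along GAS5, SNHG5, SNHG29, SNHG15 and SNHG17, by distance (bp) from the 5′ end of the gene in the direction of transcription. At GAS5, SNHG5 and SNHG29 the BMAL1 peak overlaps the MAX peak by 419, 357 and 635 bp, and SNHG15 and SNHG17 have MAX peaks only (start sites and the weakest SNHG17 peak beyond the axis are not drawn).

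The E-box was found near the MAX summit of 10 host genes, of which SNHG15 and SNHG4 were among the 5 with the highest enrichment. CACGTG was present in the 200 bp around 10 of 32 MAX summits (31.2%), against 20.4% of all MAX peaks at start sites and 3.95% of windows of that length at the 5′ ends of all genes. The 10 peaks were those of DANCR (its stronger peak), SNHG4, SNHG5, SNHG6, SNHG9, SNHG15, SNHG20, SNHG25, SNHG30 and SNHG32. All of these genes but DANCR had 1 MAX peak only, which is then the strongest by definition. None of the 9 weaker peaks held it. They lie at GAS5, DANCR, SNHG7, SNHG16, SNHG17 and SNHG29, and of these genes only DANCR had it around its strongest summit. The median fold was 11.7 for the 10 strongest peaks with CACGTG and 14.4 for the 13 without. At SNHG30 the E-box lies in the window but beyond the end of the called peak, and with SNHG30 counted as lacking it the medians were 12.1 and 13.7. These medians are those of the 200 bp window, and their order depended on the stretch searched. Over the whole peak, 16 of 23 strongest peaks held CACGTG, SNHG17 and SNHG10 among them, and the order was reversed. All 3 BMAL1 windows held CACGTG, as did 79.7% of BMAL1 peaks at start sites.

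The share depended on the width searched. In 100 bp it was 4 of 32 (12.5%, against 12.8% of all MAX peaks at start sites), and in 400 bp 18 of 32 (56.2%, against 26.5%). Several genes had their nearest E-box between 100 bp and 200 bp from the MAX summit, among them SNHG17, SNHG10 (141 bp), SNHG26 (125 bp), SNHG19 (114 bp) and SNHG7 (156 bp). The related letters CACGCG or CGCGTG were present around 6 of 32 summits (18.8%), against 18.3% of all MAX peaks at start sites and 5.06% of the 5′ ends of all genes. They were found at SNHG1, SNHG4, SNHG12, SNHG16, SNHG17 and SNHG29, and 5 of these windows had no CACGTG. The match of letters describes the reference sequence only.

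No MAX summit lay within 1 kb of a start site at 7 genes. SNHG18, the host of SNORD123, was nearest to the limit, with a MAX summit of 7.19 at 1432 bp. SNHG3, the host of SNORA73A and SNORA73B, had its nearest MAX summit 11766 bp away, and for SNHG28, SNHG22 and SNHG21 the distances were 27048, 52579 and 235341 bp. SNHG14, the long host of the imprinted SNORD115 and SNORD116 clusters, has 142 annotated transcripts and its nearest MAX summit was 252139 bp away. SNHG27 was farthest, at 2634089 bp. In the RefSeq table SNHG27 and SNHG28 are also the only genes of the 30 with no snoRNA inside them, and 23 of the other 28 had a MAX peak (82.1%). That split depends on the list. The mapped GENCODE annotation places SNORA70 in SNHG27 and SNORD64 in SNHG28, and has a snoRNA or scaRNA in 20 of the 30 genes. With either source all 30 have one.

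Host genes outside the SNHG series were examined in the same way. Of 287 other coding or lncRNA genes with a snoRNA or scaRNA inside them on the same strand, 168 had a MAX peak (58.5%) and 11 a BMAL1 peak (3.83%). Over all annotated genes these shares were 15.6% and 0.793%, and over genes with 10 or more transcripts 47.4% and 2.5%. The 287 genes had a median of 9 annotated transcripts. The 168 are not independent of the 30 genes or of one another. RPS2, LINC01618 and MATR3 have as their strongest the peak they share with SNHG9, DANCR and SNHG4, and overlapping gene entries with the same peak are counted separately. Among the 240 coding hosts the share for MAX was 64.2%, against 36.3% of protein-coding genes. Among the 47 lncRNA hosts it was 29.8%, against 12.3% of lncRNA genes. The share of lncRNA hosts depended on the list: with hosts taken from the RefSeq table, chosen after seeing the data, it was 6 of 10 (60.0%), and that of coding hosts 68.2%. The RefSeq hosts were taken without regard to strand, so the lists differ in that rule too. In the list of 287 the median of the strongest fold was 11.7. The highest MAX values were those of VPS29 (33.0), a retromer subunit, UBAP2 (31.9), DGLUCY (30.9) and the translation elongation factor gene EEF1B2 (30.8), followed by MATR3 with the peak it shares with SNHG4. All 4 values lay within the interval of SNHG15 or overlapped it with their own. The highest BMAL1 values were 31.0 [24.0 to 39.4] at DGLUCY, 17.2 [11.8 to 24.3] at UBAP2L and 12.6 at EIF4A1, which encodes the helicase of translation initiation, with the same peak counted for the lncRNA gene ENSG00000264772, then 9.74 at EIF3A. The BMAL1 interval of DGLUCY lay above those of GAS5, SNHG5 and SNHG29. VPS29 is listed through an entry named SNORD50, and the mapped annotation places some symbols, such as SNORA51, in several of the 287 genes. With hosts taken from the RefSeq table the highest MAX value was 31.9, so VPS29 is not among those hosts.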

How the data were processed

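Peak lists deposited for the BMAL1 and the MAX immunoprecipitation of MDA-MB-231 chromatin (1 library each, 1 input) were used. The authors aligned reads to hg19 with BWA 0.6.2 and called narrow peaks with MACS2 2.0.9, separately for each antibody against the same input (SAMtools is also named in the submitters' processing notes). The pileup, a signal (coverage) value deposited by the authors, is the height of fragments extended to 300 bp and is not scaled for depth. The fold enrichment deposited by the authors is the ratio of pileup to a background, which is the local input or, where higher, the genome-wide rate (tags times 300 bp over the genome size of 2700000000). The authors' caller also wrote −log10 of the p-value and q-value of each peak, as deposited. A p-value cutoff of 1e-05 stands in the headers, whereas the methods state a stricter one, and all listed peaks were used. At most 2 tags per position were kept for BMAL1 and 1 for MAX, which can compress high pileups. Depth was 13866783 tags for BMAL1, 11545865 for MAX and 29308882 for the input. A deeper library would list weaker peaks.

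Summits were assigned to every gene with a TSS within 1000 bp, using GENCODE release 44 mapped to GRCh37. The background of a peak was computed as pileup divided by fold enrichment, and the counting interval treats that background as fixed. Motifs were searched in 200 bp centred on each summit. The strongest peak of a gene is that with the highest fold enrichment. Since the mapped annotation lacks many snoRNA genes, snoRNAs within the host genes are named from RefSeq (GRCh38.p14), used for names and neighbours only, and the 287 other host genes follow the mapped annotation. Placement of snoRNAs with RefSeq took no account of strand. Assignment and motif search were tested on simulated data. Scripts ran in Python 3.11.15 with pysam 0.24.0 for sequences, scipy 1.17.1 for intervals, matplotlib 3.10.9, pandas 2.3.3 and numpy 2.4.6. With no replicates, no test was made.

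The genes, lists and settings were chosen with earlier results of these data known. Every host gene is named. Other genes are named where their TSS lies within 1 kb of the same summit, or as the 5 other hosts with the highest MAX or BMAL1 fold enrichment. Sequences are shown for genes with a BMAL1 peak and for the 5 genes with the highest MAX fold enrichment. Other windows, cutoffs, motifs and TSS sets were tried.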

Additional observations from a re-analysis of the deposited data

How the results depend on the processing

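The count of host genes with a MAX peak was 23 as reported and lay between 19 and 24 under the other settings. It was 20 with a 300 bp window (11.8% of all genes), where SNHG5, SNHG6 and SNHG32 were lost, and 24 with a 3 kb window (18.4%), where SNHG18 was gained. It was 20 at a −log10 p of at least 12 (9.93%), without SNHG19, SNHG30 and SNHG32, and 19 with 1 TSS per gene (13.4%), without SNHG6, SNHG12, SNHG20 and SNHG32. The BMAL1 count was 3, except 2 with the 300 bp window, which left out SNHG5. The median MAX fold enrichment of the strongest peaks lay between 12.6 and 12.9. Over all 32 MAX peaks of the host genes it was 11.2, against 10.1 over all 8174 MAX peaks at start sites. MAX peaks with CACGTG changed most: 10 of 32 as reported, 4 in 100 bp, 18 in 400 bp and 18 over the whole peak, where 29.8% of all MAX peaks at start sites had one. Allowing CACGCG or CGCGTG too, a setting chosen after seeing the data, gave 15. Other host genes with a MAX peak numbered from 117 of 287 at a −log10 p of at least 12 (9.93% of all genes) to 179 with a 3 kb window (18.4%). With a RefSeq host list chosen after seeing the data they numbered 180 of 265. No paired analysis was possible because each antibody has 1 library. With pileups of 11 to 71 fragments under the strongest MAX peaks, depth limits the order of neighbouring genes, and weak peaks may be missing.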
